A study of Homo sapiens with 12 samples.

Results

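The genes described here are 55 factors that build ribosomes in the nucleolus, from the proteins that modify the ribosomal RNA to those that release the small and large subunits. A gene was measured if a probe set of the array carried its symbol and no other, and of several such probe sets the one with the highest mean log2 signal was read. This gave 49 of the 55 factors, out of 19775 genes with such a probe set. NOP56, DKC1, BOP1, DDX18, GNL3 and EBNA1BP2 had no probe set of a single symbol and were not analysed here. All 49 lay above the filter on dim genes, a mean signal of 10.2, which left 12386 genes to test.

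The cells were Ls174T, established from a human colorectal carcinoma, in 2 engineered forms, and their RNA was read on Affymetrix U133 Plus 2.0 arrays, 1 array per sample and 3 per group. In Ls174T-pTER-β-catenin cells doxycycline induces an shRNA, a hairpin RNA that silences its target, here β-catenin, the transcriptional effector of Wnt signalling. These cells were measured after 72 h of induction and without it, called shRNA-induced and uninduced shRNA cells below. In Ls174T-L8 cells doxycycline switches on a dominant-negative Tcf4 (dnTcf4), which occupies β-catenin's DNA-binding partner sites without activating them, and the groups are dnTcf4-induced cells after 24 h and uninduced dnTcf4 cells. All groups share the parental tumour line and RPMI medium with 5% fetal calf serum, and only the induced groups received doxycycline, so the inducer cannot be told apart from the constructs. Construct, derivative and duration differ together between the 2 inductions and cannot be told apart either. Whether the arrays within a group represent separate cultures is not stated in the labels, and p-values measure only the spread between these arrays, which may be technical.

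A ribosome begins as one long precursor RNA transcribed in the nucleolus. Small nucleolar RNAs paired with a fixed set of proteins guide its chemical modification: box C/D particles, with the methyltransferase fibrillarin, methylate ribose, and box H/ACA particles, with the enzyme dyskerin, convert uridine to pseudouridine. A large assembly called the small-subunit processome folds and cleaves the part that becomes the small subunit, later factors finish and export it, and a separate set of factors, among them the PES1, BOP1 and WDR12 complex, matures the large subunit. Dividing crypt cells and colorectal tumours make ribosomes at a high rate, and the transcription factor MYC, a Wnt target in this tissue, is well known for driving many of these genes through a DNA element called the E-box.

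The median probe set signal was 12.1 to 15.3 per array, and arrays of one group correlated with each other at r = 0.968 to 0.976 over the genes tested. As a check of the constructs, the brightest CTNNB1 probe set, that of β-catenin, read 173, 164 and 132 in shRNA-induced cells, against 3816, 3961 and 3575 in uninduced shRNA cells, and the 2 brightest of its 3 probe sets fell by 4.61 and 3.92 on the log2 scale. Of 7 probe sets for TCF7L2, the gene of Tcf4, 2 rose by 2.92 and 3.53 with dnTcf4 and were at 0.63 and 0.49 with the shRNA. The brightest TCF7L2 probe set rose by 0.72 with dnTcf4 and by 0.74 with the shRNA. All 9 listed markers of colorectal epithelium were above the filter. Their summed signal was 33948 to 38658 in shRNA-induced cells and 15667 to 18396 in uninduced shRNA cells, and 32775 to 37282 in dnTcf4-induced and 22352 to 25176 in uninduced dnTcf4 cells. Of 6 fibroblast markers 3 were above the filter. Sums over all 6 were 87.3 to 146.0 in shRNA-induced, 84.1 to 110.6 in uninduced shRNA, 166 to 191 in dnTcf4-induced and 94.3 to 117 in uninduced dnTcf4 cells. Of 5 leukocyte markers 2 passed, and sums over all 5 were 62.0 to 74.1, 107 to 130.2, 52.0 to 61.3 and 38.6 to 59.2 in the same order of groups. The 3 leukocyte markers below the filter had geometric means of 1.43, 5.88, 6.27 and 2.49 (PTPRC), 2.32, 1.72, 1.30 and 2.61 (CD14) and 12.7, 17.7, 4.12 and 9.19 (CD3E) in that order, and the part of these cell types in the results was not tested. The ratio of 3′ to 5′ signal for actin, a sign of RNA integrity, was 1.29 to 1.34 in shRNA-induced and 1.31 to 1.39 in uninduced shRNA cells. It was 1.13 to 1.16 in dnTcf4-induced and 1.25 to 1.35 in uninduced dnTcf4 cells, so that it did not overlap between the dnTcf4 groups.

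Ribosome biogenesis factors fell nearly as a whole after 24 h of dnTcf4 and in part after 72 h of β-catenin shRNA, and no member rose in either line. With dnTcf4, 45 of 49 were lower, where 20% of all genes tested were called lower. With the shRNA 23 of 49 were lower, where 17.4% of all genes were. All 49 members had a mean signal of at least 102.8, and brighter genes were called more often. Under a stricter filter, a mean signal of 78.2, 7907 genes were tested. There 47 of 49 members were lower with dnTcf4, against 29.0% of genes, and 25 of 49 with the shRNA, against 24.4%. The test was limma's moderated statistic over all genes at a Benjamini-Hochberg adjusted p under 0.05. By the same test 0 members were called higher with dnTcf4 and 0 with the shRNA, against 16% and 16.6% of all genes, and at an unadjusted p under 0.05 the counts were also 0 and 0. The median log2 change (induced minus uninduced) of the members was -0.70 with dnTcf4, against -0.05 over all genes, and -0.29 with the shRNA, against 0.02 over all genes.

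Every one of the 23 members lowered by the shRNA was also lowered by dnTcf4, which left 22 lower with dnTcf4 alone and 4 called in neither line. Over all genes 9.68% were lower in both. With dnTcf4 the 3 induced values lay below the 3 uninduced values for 48 of 49 members, against 26% of all genes, and with the shRNA for 26 of 49, against 22.2%. Decreases were mostly moderate: 7 members fell at least 2-fold with dnTcf4 (2.64% of all genes did) and 4 with the shRNA (4.32%). These are bulk measurements scaled to a common mean, so fewer cells with a transcript and less of it per cell cannot be told apart. The lower 3′ to 5′ ratio of dnTcf4-induced arrays moved with these decreases, and its part in them was not tested. Counts in both lines depended on the probe sets and the size required. With the shRNA the count was 13 of 49 with the mean over all probe sets of a gene (13.6% of all genes under the same setting). It was 13 of 36 without _x_at and _s_at probe sets (15.7%), and 9 of 49 with a minimum change of 1.2-fold (8.69%). With dnTcf4 the count was 33 of 49 (14.3%), 31 of 36 (17.6%) and 33 of 49 (8.5%) under these settings.

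**Figure D1:**
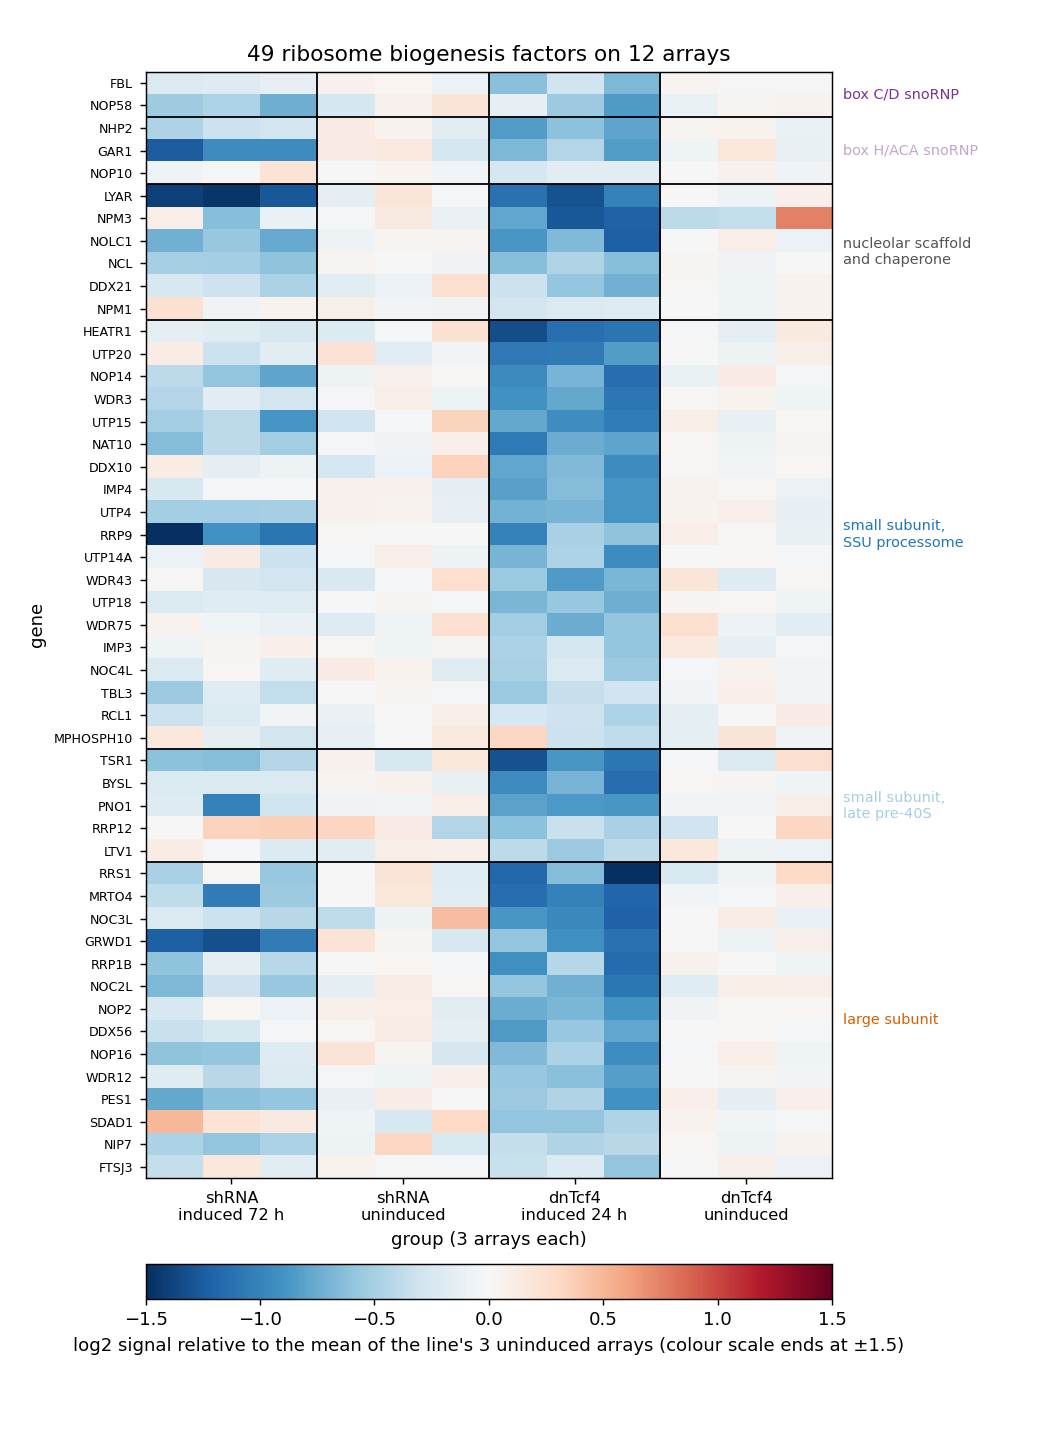
Log2 signal of 49 factors (rows, grouped by step) on 12 arrays (columns, 3 per group), each relative to the mean of the 3 uninduced arrays of its own line; blue is lower, red higher. The dnTcf4-induced columns are blue in nearly every row, with medians over members of -0.68, -0.61 and -0.84, and the shRNA-induced columns in part of the rows, with medians of -0.32, -0.24 and -0.28.

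MYC fell by almost the same amount in both lines. Its signal was 1112, 1099 and 1156 in shRNA-induced cells, against 2120.4, 2299.8 and 2276 in uninduced shRNA cells, and 972, 1034 and 833 in dnTcf4-induced cells, against 1942, 1753 and 1925 in uninduced dnTcf4 cells. The groups did not overlap in either line. On the log2 scale MYC fell by 0.99 ± 0.09 (adjusted p = 1.9e-07) and by 0.99 ± 0.09 (adjusted p = 2.5e-07), and the difference of the changes was -0.00 ± 0.12 (adjusted p = 0.996). The median changes of the 49 factors beside it were -0.29 and -0.70, and the part of MYC in them was not tested. MYC was also lower in uninduced dnTcf4 than in uninduced shRNA cells, by 0.25 (limma adjusted p = 0.029). That call was lost when any 1 of 3 arrays was left out.

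The promoters of these genes are shown because many hold the palindromic E-box CACGTG, the element that MYC and its partner MAX bind. RefSeq windows of 300 bases on GRCh38.p14, from 250 before to 50 after an annotated start, were found for 47 of the 55 factors, 43 of them measured. CACGTG, which reads the same on both strands, occurred in 25 of these 47 (53.2%), against 12.8% of 10088 tested genes with a window and 8.77% of all 27305 genes with one. The word CTTTGAT, a core of the TCF element, was searched on both strands and occurred in 1 of 47 (2.13%), TBL3, against 2.19% of tested genes and 3.18% of all genes, and shared no base with an E-box there. The E-box variant CACGCG, or CGCGTG on the other strand, occurred in 13 of 47 (27.7%), against 21.9% of tested genes and 13.5% of all genes. Of the 29 CACGTG boxes, 22 (75.9%) began within 50 bases of the start, against 37.0% of 2816 in all windows. The changes of measured members with and without an E-box are given side by side, with no test: with dnTcf4 21 of 23 with it and 20 of 20 without it were lower (median log2 changes -0.70 and -0.71), and with the shRNA 10 of 23 and 11 of 20 (medians -0.22 and -0.28). A match is a stretch of letters and not a measured binding site.

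**Figure D2:**
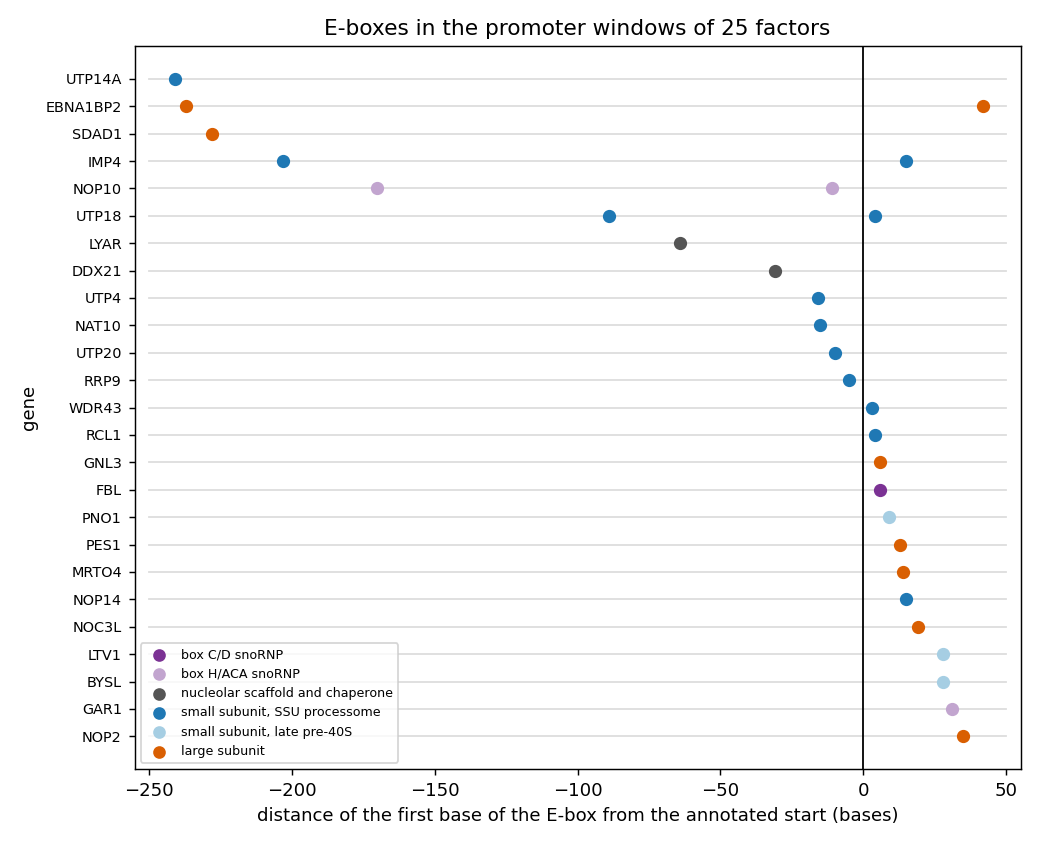
Position of each E-box (points) in the promoter windows of 25 factors (rows, grey lines from 250 bases before to 50 after the annotated start), coloured by step; the horizontal axis is the distance of its first base from the start in bases, and genes with 2 windows show the boxes of both. Of 29 boxes, 22 lie within 50 bases of the start.

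The windows below belong to factors with the largest decreases, chosen after their values were seen. They are written 5′ to 3′ on the strand of the gene, in lower case with E-boxes in capitals. LYAR, RRP9, PES1, MRTO4 and NOC3L have an E-box, and GRWD1, HEATR1 and TSR1, which fell by similar amounts in one or both lines, have none in the window shown, though GRWD1 and TSR1, like MRTO4, hold the variant CACGCG on the strand shown. LYAR has a second window, without an E-box. In order they lie at chr4:4289972-4290271 (minus strand), chr3:51941855-51942154 (minus), chr22:30591861-30592160 (minus), chr1:19251555-19251854 (plus), chr10:94362890-94363189 (minus), chr19:48445733-48446032 (plus), chr1:236604467-236604766 (minus) and chr17:2336408-2336707 (minus).
LYAR: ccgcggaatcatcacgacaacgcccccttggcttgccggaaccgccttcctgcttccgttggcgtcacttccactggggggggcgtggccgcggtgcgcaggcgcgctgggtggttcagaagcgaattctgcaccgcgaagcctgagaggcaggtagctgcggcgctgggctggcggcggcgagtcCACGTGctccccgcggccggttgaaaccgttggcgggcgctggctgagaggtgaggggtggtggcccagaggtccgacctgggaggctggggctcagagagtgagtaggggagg
RRP9: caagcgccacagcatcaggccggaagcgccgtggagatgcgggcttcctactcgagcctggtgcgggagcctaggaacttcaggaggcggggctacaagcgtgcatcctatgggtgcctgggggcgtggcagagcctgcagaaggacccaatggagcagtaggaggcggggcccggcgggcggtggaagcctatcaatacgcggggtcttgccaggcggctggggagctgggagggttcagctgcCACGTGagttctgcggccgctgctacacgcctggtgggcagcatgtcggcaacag
PES1: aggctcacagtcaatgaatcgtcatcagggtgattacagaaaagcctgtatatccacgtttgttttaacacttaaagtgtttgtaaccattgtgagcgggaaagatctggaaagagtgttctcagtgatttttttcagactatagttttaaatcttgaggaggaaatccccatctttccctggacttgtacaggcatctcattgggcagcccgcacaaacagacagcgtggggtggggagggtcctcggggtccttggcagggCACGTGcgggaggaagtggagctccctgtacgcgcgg
MRTO4: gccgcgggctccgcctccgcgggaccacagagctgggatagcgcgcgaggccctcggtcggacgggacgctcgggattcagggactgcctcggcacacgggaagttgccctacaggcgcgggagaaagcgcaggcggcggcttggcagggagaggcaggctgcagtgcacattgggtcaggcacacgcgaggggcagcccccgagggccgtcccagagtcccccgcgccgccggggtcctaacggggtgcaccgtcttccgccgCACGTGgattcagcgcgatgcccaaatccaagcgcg
NOC3L: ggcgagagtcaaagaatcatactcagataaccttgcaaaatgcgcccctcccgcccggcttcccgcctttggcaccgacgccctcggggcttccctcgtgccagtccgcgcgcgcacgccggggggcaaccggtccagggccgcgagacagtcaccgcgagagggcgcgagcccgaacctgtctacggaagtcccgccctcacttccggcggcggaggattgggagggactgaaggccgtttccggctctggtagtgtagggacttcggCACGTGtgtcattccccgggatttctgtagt
GRWD1: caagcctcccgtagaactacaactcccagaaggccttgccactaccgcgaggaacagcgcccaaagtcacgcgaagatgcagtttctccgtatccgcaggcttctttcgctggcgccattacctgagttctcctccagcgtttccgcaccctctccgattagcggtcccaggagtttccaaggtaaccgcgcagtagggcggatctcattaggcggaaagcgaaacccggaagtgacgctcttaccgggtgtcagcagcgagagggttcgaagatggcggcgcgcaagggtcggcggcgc
HEATR1: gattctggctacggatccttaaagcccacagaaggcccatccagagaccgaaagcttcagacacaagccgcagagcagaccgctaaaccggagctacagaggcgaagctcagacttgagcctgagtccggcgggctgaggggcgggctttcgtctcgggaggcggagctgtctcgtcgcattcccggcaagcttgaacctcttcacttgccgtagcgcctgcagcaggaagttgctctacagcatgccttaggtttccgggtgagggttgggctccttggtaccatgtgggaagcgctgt
TSR1: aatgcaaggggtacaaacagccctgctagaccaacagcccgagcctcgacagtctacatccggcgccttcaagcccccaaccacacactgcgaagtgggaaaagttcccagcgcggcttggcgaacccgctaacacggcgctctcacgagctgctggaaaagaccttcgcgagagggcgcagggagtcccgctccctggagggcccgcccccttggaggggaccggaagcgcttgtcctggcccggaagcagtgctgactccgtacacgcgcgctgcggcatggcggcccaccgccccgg

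Among the proteins of the modification particles, 4 of 5 measured members fell with dnTcf4 and 3 of 5 with the shRNA (median log2 changes -0.53 and -0.35). GAR1, a structural subunit of box H/ACA particles, read 353, 434 and 435 in shRNA-induced cells, against 908, 927 and 694 in uninduced shRNA cells. It read 499, 587 and 445 in dnTcf4-induced cells, against 762, 895 and 733 in uninduced dnTcf4 cells. All induced values lay below all uninduced values in each line, and GAR1 fell 2.06-fold with the shRNA (log2 change -1.04 ± 0.13, adjusted p = 1.5e-05) and 1.57-fold with dnTcf4 (-0.65 ± 0.13, adjusted p = 0.0012). NHP2, which binds the guide RNA of the same particles, had signals of 3211, 3545 and 3673 in shRNA-induced cells, against 4831, 4589.6 and 3942 in uninduced shRNA cells, and 2268, 2640.5 and 2341 in dnTcf4-induced cells, against 4169, 4178 and 3785 in uninduced dnTcf4 cells. It too separated in both lines and fell by 0.35 ± 0.09 with the shRNA (adjusted p = 0.0045) and by 0.74 ± 0.09 with dnTcf4 (adjusted p = 6.2e-06).

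The third H/ACA subunit, NOP10, did not pass in either line. Its signal was 3448, 3519.6 and 4144 in shRNA-induced cells, against 3584, 3702 and 3506 in uninduced shRNA cells, values that overlapped. In dnTcf4-induced cells it was 2526, 2692 and 2676, below the 2995, 3139 and 2902 of uninduced dnTcf4 cells, but the change of -0.19 ± 0.08 missed the threshold (adjusted p = 0.054). Box C/D particles are represented by fibrillarin (FBL) and NOP58, a core protein that holds the guide RNA. FBL read 3583, 3646 and 3814 in shRNA-induced cells, against 4333, 4249 and 3896 in uninduced shRNA cells, and its change of -0.18 ± 0.09 did not pass (adjusted p = 0.14) although the groups did not overlap. It fell by 0.53 ± 0.09 in dnTcf4-induced cells (2537, 3195 and 2456, against 4048, 3879.5 and 3844 in uninduced dnTcf4 cells; adjusted p = 0.00015). NOP58 had 388, 409 and 338 in shRNA-induced cells, against 470.2, 589 and 641 in uninduced shRNA cells, and fell by 0.58 ± 0.15 (adjusted p = 0.0079). With dnTcf4 it fell by 0.50 ± 0.15 (764, 570.4 and 463 in dnTcf4-induced, against 776, 856 and 865 in uninduced dnTcf4 cells; adjusted p = 0.017). That call was lost without dnTcf4 induced replicate 3 (-0.33) or dnTcf4 uninduced replicate 2 (-0.48) or 3 (-0.47).

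All 6 nucleolar scaffold and chaperone proteins fell with dnTcf4, and 4 of 6 fell with the shRNA (medians -0.75 and -0.44). LYAR, a zinc finger protein of the nucleolus, had the largest decrease of all members with the shRNA. Its signal was 154, 148 and 168 in shRNA-induced cells, against 366, 458 and 396 in uninduced shRNA cells, and 205, 181 and 220.2 in dnTcf4-induced cells, against 446, 423 and 469 in uninduced dnTcf4 cells. Neither line had overlapping values, and the decreases were 2.59-fold (log2 change -1.37 ± 0.12, adjusted p = 1.3e-07) and 2.22-fold (-1.15 ± 0.12, adjusted p = 1.2e-06). A second, dimmer LYAR probe set fell less, by 0.84 with the shRNA and by 0.81 with dnTcf4, and passed in both lines. The LYAR promoter is the first of those printed above. NOLC1, also known as Nopp140, a chaperone of small nucleolar particles, read 648, 720.3 and 634 in shRNA-induced cells, against 1013, 1098 and 1106 in uninduced shRNA cells, and 879, 1018 and 691 in dnTcf4-induced cells, against 1599.8, 1719 and 1512 in uninduced dnTcf4 cells. It fell by 0.68 ± 0.12 (adjusted p = 0.00021) and 0.92 ± 0.12 (adjusted p = 1.2e-05), again without overlap.

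NPM3, a histone chaperone of the nucleoplasmin family, passed with dnTcf4 alone. It read 124, 88.0 and 91.7 in dnTcf4-induced cells, against 162, 166 and 360.5 in uninduced dnTcf4 cells, a decrease of 1.09 ± 0.25 on the log2 scale (adjusted p = 0.0029). Uninduced dnTcf4 replicate 3 was far above the other uninduced arrays, and without it the change was -0.71. The groups did not overlap. In shRNA-induced cells it read 412, 247 and 358, against 374, 420.4 and 358 in uninduced shRNA cells, overlapping values with a change of -0.21 ± 0.25 (adjusted p = 0.58), and the difference between the changes, 0.88 ± 0.36, did not pass (adjusted p = 0.1). Nucleolin (NCL), an abundant RNA-binding protein of the nucleolus, fell by 0.54 with the shRNA and by 0.58 with dnTcf4, and the helicase DDX21 by 0.34 and 0.54, of which the first did not pass without shRNA induced replicate 3 (-0.27) or shRNA uninduced replicate 3 (-0.22). Nucleophosmin (NPM1) had a change of 0.08 with the shRNA (adjusted p = 0.44) and the smallest called decrease with dnTcf4, 0.23, lost without dnTcf4 induced replicate 1 (-0.20) or dnTcf4 uninduced replicate 1 (-0.22) or 3 (-0.20). Its probe set used here changed less with dnTcf4 than its other probe sets, which were at -0.59 and -0.49. With the shRNA these 2 were at -0.07 and -0.25, and the second passed as lower when adjusted over all probe sets.

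**Figure D3:**
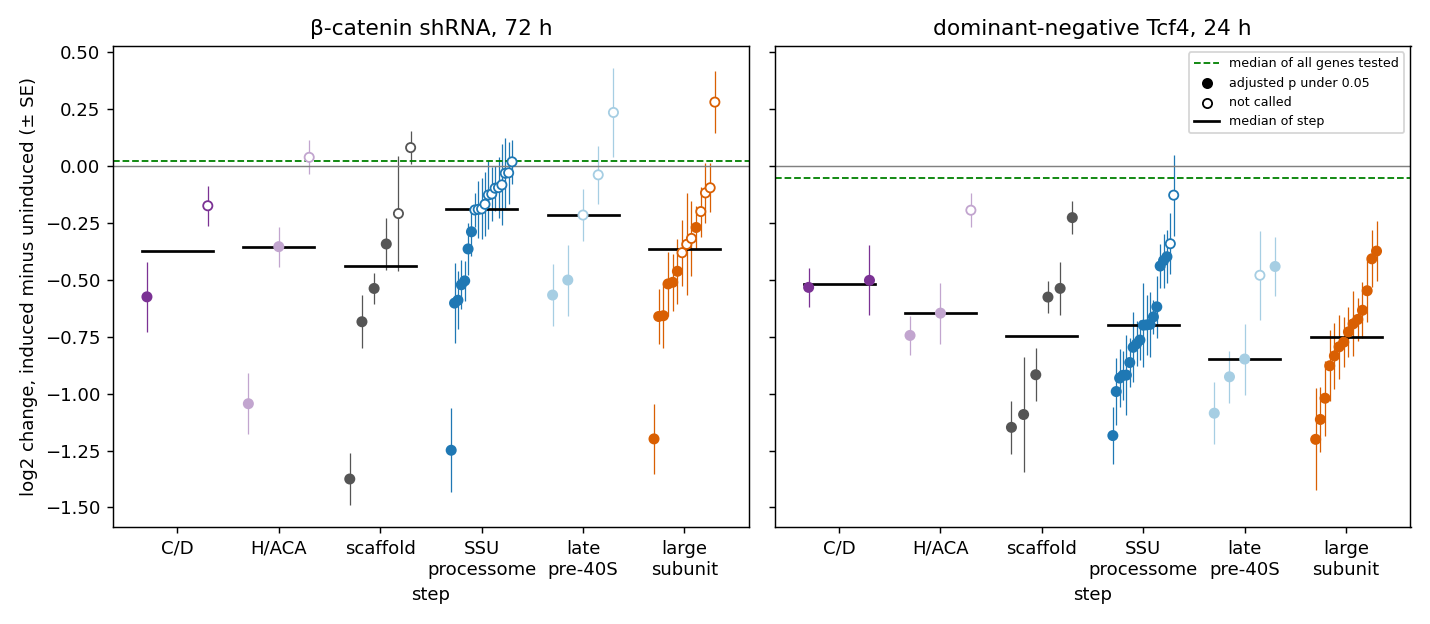
Log2 change (induced minus uninduced, points ± SE, n = 3 arrays a group) of each factor by step, with the β-catenin shRNA (left) and with dnTcf4 (right); filled points passed at an adjusted p under 0.05, black bars are medians of a step and the dashed line is the median of 12386 genes. With dnTcf4 every point lies below 0 and the medians run from -0.52 to -0.85, and with the shRNA from -0.19 to -0.44.

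Of the 24 small-subunit factors 21 fell with dnTcf4 and 9 with the shRNA (medians -0.73 and -0.19). Within the small-subunit processome the counts were 17 of 19 and 7 of 19. HEATR1, the human counterpart of yeast Utp10 and needed for transcription of the ribosomal RNA precursor, had the largest decrease of these with dnTcf4. It read 102, 117 and 120.3 in dnTcf4-induced cells, against 254, 234 and 284 in uninduced dnTcf4 cells, a 2.27-fold decrease without overlap (log2 change -1.18 ± 0.12, adjusted p = 1.9e-06). In shRNA-induced cells it read 358, 349 and 336, against 344, 392 and 464 in uninduced shRNA cells, and did not pass (-0.19 ± 0.12, adjusted p = 0.26). Its next brightest probe set fell by 0.73 with dnTcf4, and the mean over all its probe sets, 1 of them below the filter, changed by -0.28, which missed the threshold (adjusted p = 0.45).

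UTP20, a very large helical repeat protein of the processome, also passed with dnTcf4 alone. Its signals were 75.9, 76.9 and 89.1 in dnTcf4-induced cells, against 159, 151 and 169.6 in uninduced dnTcf4 cells, where it fell by 0.99 ± 0.15 (adjusted p = 6.9e-05). They were 136, 101 and 113 in shRNA-induced cells, against 147, 113 and 123 in uninduced shRNA cells, overlapping values with a change of -0.13 ± 0.15 (adjusted p = 0.56). DDX10, a helicase whose yeast counterpart Dbp4 acts in the processome, read 90.3, 97.8 and 80.7 in dnTcf4-induced cells, against 157, 150.5 and 158 in uninduced dnTcf4 cells, and fell by 0.80 ± 0.15 (adjusted p = 0.00067). With the shRNA it was at 147, 124 and 129.5, against 114, 129 and 173 in uninduced shRNA cells, a change of -0.03 ± 0.15 (adjusted p = 0.9).

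RRP9 had the reverse order of sizes. This component of the U3 particle, which guides the first cleavages, read 61.0, 109 and 95.5 in shRNA-induced cells, against 207, 203 and 203 in uninduced shRNA cells, a 2.38-fold decrease (log2 change -1.25 ± 0.18, adjusted p = 6.1e-05). In dnTcf4-induced cells it read 122, 176 and 162, against 262, 249 and 227 in uninduced dnTcf4 cells, 1.62-fold lower (-0.70 ± 0.18, adjusted p = 0.0071). The groups did not overlap in either line, but the difference between the changes, -0.55 ± 0.26, did not pass (adjusted p = 0.17). UTP15, of the subcomplex that joins the precursor RNA first, read 91.4, 99.0 and 70.8 in shRNA-induced cells, against 106, 128 and 164 in uninduced shRNA cells, and 80.3, 71.6 and 66.0 in dnTcf4-induced cells, against 145, 126 and 140.1 in uninduced dnTcf4 cells. It fell by 0.60 ± 0.17 (adjusted p = 0.013) and 0.92 ± 0.17 (adjusted p = 0.00057), and the first decrease no longer passed without shRNA induced replicate 3 (-0.46) or shRNA uninduced replicate 3 (-0.44). Its second, dimmer probe set was at 0.00 with the shRNA and at -0.43 with dnTcf4, and neither change passed. UTP4, of the same subcomplex, fell by 0.51 ± 0.09 with the shRNA (600.1, 600.5 and 605 in induced, 894, 886 and 787 in uninduced cells) and by 0.76 ± 0.09 with dnTcf4 (829, 831 and 731 in induced, 1398, 1427 and 1239 in uninduced cells).

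NOP14 and NAT10, the acetyltransferase of the small-subunit RNA, fell in both lines, by 0.59 and 0.52 with the shRNA and by 0.93 and 0.86 with dnTcf4. WDR3 fell by 0.92 with dnTcf4 and by 0.29 with the shRNA. The shRNA decrease had an adjusted p of 0.048 and no longer passed when any 1 of 8 of the 12 arrays was left out (-0.35 to -0.22 over all 12). TBL3 fell by 0.40 with dnTcf4, a call lost without dnTcf4 induced replicate 1 (-0.32) or dnTcf4 uninduced replicate 2 (-0.36), and by 0.36 with the shRNA, which did not pass without shRNA induced replicate 1 (-0.28) or 3 (-0.36) or shRNA uninduced replicate 2 (-0.34). WDR43, WDR75, UTP14A, UTP18, IMP3, IMP4 and NOC4L fell with dnTcf4, by 0.42 to 0.78, and none of these 7 passed with the shRNA (changes of -0.19 to 0.02). IMP3, IMP4 and MPHOSPH10 form 1 complex in the processome, yet MPHOSPH10 had changes of -0.08 ± 0.18 with the shRNA and -0.13 ± 0.18 with dnTcf4 that did not pass (adjusted p = 0.77 and 0.63), and of the 49 members it was the one whose groups overlapped in the dnTcf4 line. RCL1 did not pass either (-0.34 ± 0.13 with dnTcf4, adjusted p = 0.057), although its second probe set, of about the same brightness, fell by 1.03.

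Late small-subunit factors, which join or leave after the processome has come apart, fell in 4 of 5 cases with dnTcf4 and in 2 of 5 with the shRNA (medians -0.85 and -0.22). TSR1, a protein related to GTPases that sits on the immature small subunit, read 391, 526 and 456 in dnTcf4-induced cells, against 949.8, 831 and 1135 in uninduced dnTcf4 cells, and fell 2.12-fold (-1.09 ± 0.14, adjusted p = 1.2e-05). With the shRNA it fell by 0.57 ± 0.14 (adjusted p = 0.0038; 480.4, 471 and 541 in shRNA-induced, against 768, 624 and 831 in uninduced shRNA cells). Its probe sets disagreed there: the next brightest was at -0.64, and the only one not ending in _x_at or _s_at was at 0.20 and did not pass. BYSL, bystin, read 220.2, 262 and 193 in dnTcf4-induced cells, against 433, 435 and 406 in uninduced dnTcf4 cells, and fell by 0.93 ± 0.11 (adjusted p = 9.7e-06). The values 274, 272 and 273 of shRNA-induced cells lay just below the 327, 332 and 294 of uninduced shRNA cells, and the change of -0.22 ± 0.11 did not pass (adjusted p = 0.16).

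PNO1 fell by 0.50 with the shRNA, though not without shRNA induced replicate 2 (-0.24) or shRNA uninduced replicate 3 (-0.46), and by 0.85 with dnTcf4. Its other probe sets above the filter were at -0.26 and 0.18 with the shRNA and did not pass. With dnTcf4 they were at -0.69 and -0.71 and passed. LTV1, an export adaptor in yeast, fell by 0.44 with dnTcf4, lost without dnTcf4 uninduced replicate 1 (-0.36), and was at -0.04 with the shRNA. RRP12, needed in yeast for subunit export, passed in neither line. It read 176, 224 and 227 in shRNA-induced cells, against 221, 192 and 130.2 in uninduced shRNA cells, and 60.8, 73.9 and 66.6 in dnTcf4-induced cells, against 75.7, 92.6 and 116 in uninduced dnTcf4 cells, with changes of 0.23 ± 0.20 and -0.48 ± 0.20 (adjusted p = 0.4 and 0.068). Its values separated in the dnTcf4 line and overlapped in the shRNA line.

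All 14 measured large-subunit factors fell with dnTcf4, and 7 of 14 fell with the shRNA (medians -0.75 and -0.36). GRWD1, whose yeast counterpart is a chaperone of a large-subunit ribosomal protein, read 71.0, 66.8 and 80.2 in shRNA-induced cells, against 192, 171 and 140.3 in uninduced shRNA cells, a 2.3-fold decrease (-1.20 ± 0.16, adjusted p = 1.5e-05). In dnTcf4-induced cells it read 153, 122 and 106, against 229, 218 and 245 in uninduced dnTcf4 cells, 1.84-fold lower (-0.88 ± 0.16, adjusted p = 0.00031). Neither line had overlapping values. MRTO4, a nuclear stand-in for a protein of the ribosomal stalk, read 338, 212 and 301 in shRNA-induced cells, against 438, 494 and 391 in uninduced shRNA cells, and 319.8, 348 and 309 in dnTcf4-induced cells, against 685, 687 and 741 in uninduced dnTcf4 cells. It fell by 0.66 ± 0.14 (adjusted p = 0.0018) and 1.11 ± 0.14 (adjusted p = 1.5e-05). On its second, dimmer probe set, the only one left without _s_at and _x_at probe sets, the dnTcf4 change of -0.98 did not pass (adjusted p = 0.10) while the shRNA change did.

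RRS1, which in yeast brings the smallest ribosomal RNA into the large subunit, had the largest decrease of all members with dnTcf4. It read 282, 407 and 188 in dnTcf4-induced cells, against 545, 610.0 and 787 in uninduced dnTcf4 cells, 2.3-fold lower (-1.20 ± 0.22, adjusted p = 0.00048). The groups did not overlap, and the induced arrays differed widely among themselves. With the shRNA the values 456, 651 and 429.6 overlapped the 636, 730.5 and 561 of uninduced shRNA cells (change -0.34 ± 0.22, adjusted p = 0.26). NOC3L, a scaffold of early large-subunit particles, read 226, 211 and 178 in dnTcf4-induced cells, against 411, 446 and 384 in uninduced dnTcf4 cells, and fell by 1.02 ± 0.17 (adjusted p = 0.00014). In shRNA-induced cells it read 275, 255 and 239.5, against 246, 302 and 439 in uninduced shRNA cells, where uninduced shRNA replicate 3 was high, and the change of -0.32 ± 0.17 did not pass (adjusted p = 0.16).

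Both measured members of the PES1, BOP1 and WDR12 complex, which is required for processing of the large-subunit RNAs, fell in both lines. PES1 read 279, 306 and 316 in shRNA-induced cells, against 438, 513 and 476 in uninduced shRNA cells, and 373, 399.5 and 290.1 in dnTcf4-induced cells, against 573, 492 and 572 in uninduced dnTcf4 cells. Its decreases of 0.66 ± 0.12 (adjusted p = 0.00045) and 0.63 ± 0.12 (adjusted p = 0.00064) were close to each other, and both calls were lost when it was averaged with its second probe set, which is near the floor (-0.20 and -0.32). WDR12 read 712, 608 and 699 in shRNA-induced cells, against 802, 774 and 855 in uninduced shRNA cells, and 469, 449 and 389.9 in dnTcf4-induced cells, against 694, 713 and 675 in uninduced dnTcf4 cells. It fell by 0.67 ± 0.10 with dnTcf4 (adjusted p = 4.1e-05) and by 0.27 ± 0.10 with the shRNA (adjusted p = 0.038). For the shRNA, leaving out shRNA induced replicate 2 (-0.20) or 3 (-0.30) ended the call, as did any of the 3 uninduced shRNA arrays (-0.30 to -0.23) or dnTcf4 uninduced replicate 1 (-0.27).

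Other large-subunit factors fell by 0.37 to 0.83 with dnTcf4. They were NOP2, a methyltransferase of the large-subunit RNA (-0.77), the helicase DDX56 (-0.73), NOC2L (-0.79), NOP16 (-0.69), RRP1B (-0.83), SDAD1 (-0.55), NIP7 (-0.41) and FTSJ3 (-0.37), a methyltransferase. The call of NIP7 was lost without dnTcf4 induced replicate 2 (-0.38) or dnTcf4 uninduced replicate 1 (-0.39) or 3 (-0.38), and that of FTSJ3 without dnTcf4 induced replicate 1 (-0.39) or 3 (-0.27) or dnTcf4 uninduced replicate 1 (-0.37) or 2 (-0.34). With the shRNA NOC2L (-0.52), NIP7 (-0.51) and NOP16 (-0.46) fell, the last not without shRNA induced replicate 1 (-0.39) or 2 (-0.40) or shRNA uninduced replicate 1 (-0.36) or 2 (-0.44). NOP2, DDX56, RRP1B, SDAD1 and FTSJ3 did not pass there, with changes of -0.38 to 0.28.

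**Figure D4:**
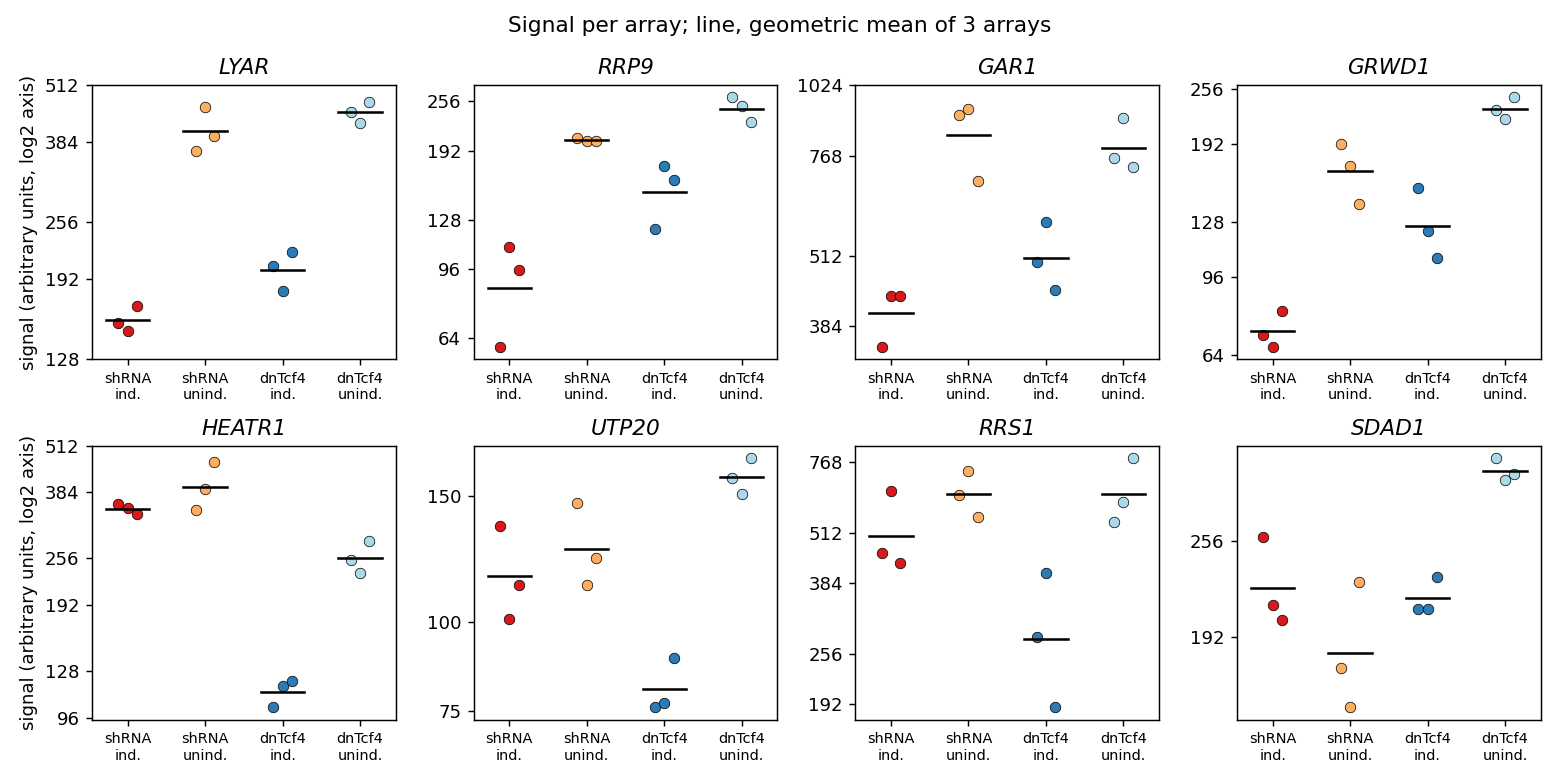
Signal of 8 factors on each array (points, arbitrary units on a log2 axis), with the geometric mean of 3 arrays (line), for induced and uninduced (ind. and unind.) cells of each line. LYAR, RRP9, GAR1 and GRWD1 (top) separate induced from uninduced arrays in both lines, and HEATR1, UTP20, RRS1 and SDAD1 (bottom) only in the dnTcf4 line.

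The change was lower with dnTcf4 than with the shRNA for 42 of 49 members, and the difference between the changes (shRNA minus dnTcf4) passed for 15. With the shRNA 5 of the 49 had a change above 0. The median difference was 0.36 over members and 0.04 over all genes, and the share of all genes with this sign was not counted. All 15 were positive, the shRNA change lying above the dnTcf4 change. Of all genes tested 17.6% had a called difference, 9.03% a positive and 8.61% a negative one, and 0 members had a negative one (limma; also 0 at an unadjusted p under 0.05). Under the stricter filter on dim genes 18 of 49 members passed (36.7%), all positive. There 26.3% of genes had a called difference in either direction and 13.7% a positive one. Of the 15, 10 are small-subunit factors out of 24 measured, 4 are large-subunit factors out of 14, and 1, NHP2, belongs to the H/ACA particle. The largest of the 15 were HEATR1 (0.99 ± 0.18, adjusted p = 0.00097), UTP20 (0.86 ± 0.21, adjusted p = 0.0091) and SDAD1 (0.83 ± 0.19, adjusted p = 0.0074), followed by DDX10 (0.76 ± 0.22), BYSL (0.71 ± 0.16) and NOC3L (0.70 ± 0.23). The other HEATR1 probe sets above the filter had smaller differences, 0.54, 0.21 and 0.12 from brightest to dimmest, and none passed. SDAD1, whose yeast counterpart Sda1 is needed for large-subunit export, read 259, 211 and 202 in shRNA-induced cells, against 175, 156 and 226 in uninduced shRNA cells, and 209, 209 and 230.0 in dnTcf4-induced cells, against 328, 307 and 312 in uninduced dnTcf4 cells. It fell by 0.55 ± 0.14 with dnTcf4 (adjusted p = 0.005) and had a change of 0.28 ± 0.14 with the shRNA (adjusted p = 0.13). The mean over its probe sets, 1 of them below the filter, turned the dnTcf4 change to 0.18, which did not pass. Its second bright probe set was at -0.43 with dnTcf4 and at -0.01 with the shRNA. Neither change passed when adjusted over all probe sets, nor did their difference of 0.43.

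The count of 15 is sensitive to single arrays and to scaling. With each array centred on its median it was 6 of 49 (12.2%), all positive. Under that setting 12.1% of all genes had a called difference in either direction, the same share, and 5.21% a positive one. With a minimum change of 1.2-fold the count was 1 of 49 (2.04%), below the 7.08% of all genes in either direction and the 3.18% with a positive difference. The count was 8 (16.3%) with the mean over all probe sets, 9 (18.4%) without a variance trend and 9 (18.4%) without dnTcf4 uninduced replicate 1, all positive. Of all genes 11.4%, 14.1% and 14.4% had a called difference there, and 5.47%, 7.12% and 7.23% a positive one. The difference for NOC3L was lost when any 1 of 10 of the 12 arrays was left out (0.51 to 0.93 over all 12), and that for NHP2, 0.39, when any 1 of 8 was (0.30 to 0.46). That for DDX10 was lost without shRNA induced replicate 1 (0.69) or shRNA uninduced replicate 1 (0.63) or 2 (0.72). Differences for 8 of the 15 passed whichever array was left out. For the 34 members whose difference did not pass, the 2 responses were not shown to be alike.

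**Figure D5:**
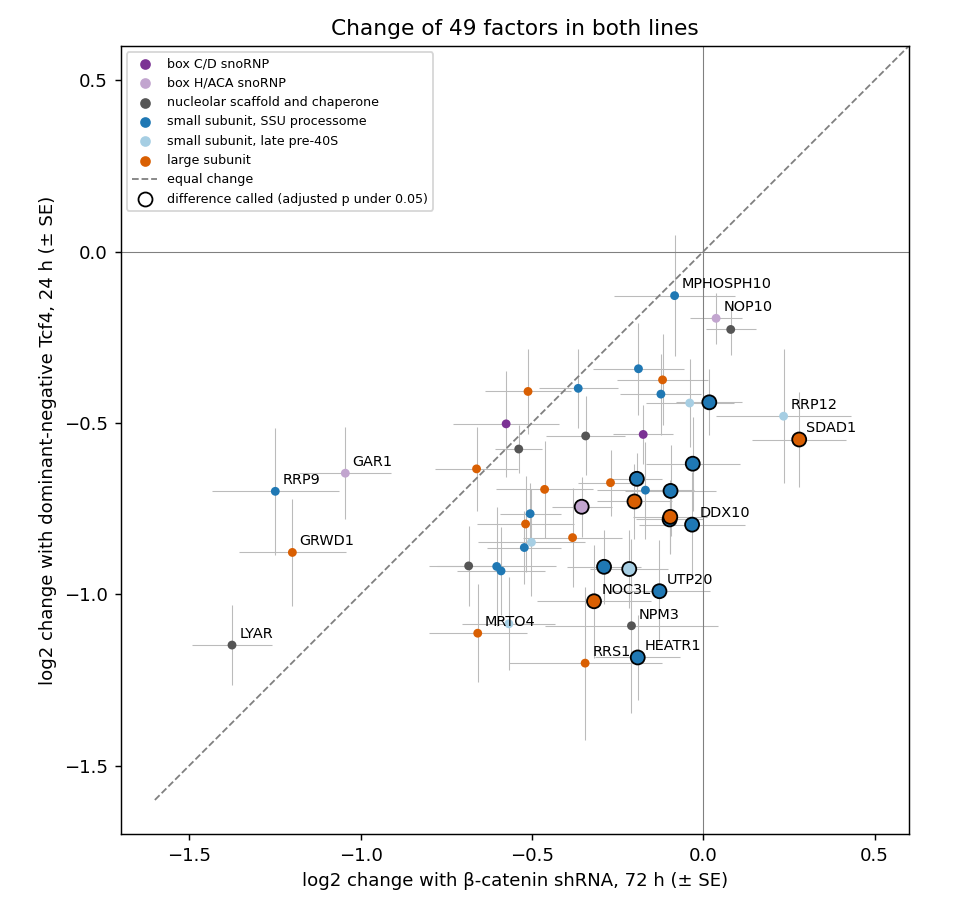
Log2 change with the β-catenin shRNA (horizontal, ± SE) and with dnTcf4 (vertical, ± SE) of 49 factors, coloured by step; ringed points had a called difference between the changes, and the dashed line marks equal change. Of the 49 points, 42 lie below the dashed line, and LYAR, RRP9, GRWD1 and GAR1 stand at the left with at least 2-fold decreases with the shRNA.

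Between the uninduced derivatives 19 of 49 members differed (38.8%), close to the 37.3% of all genes and below the 46.6% under the stricter filter. Of these 19, 15 were higher and 4 lower in uninduced dnTcf4 than in uninduced shRNA cells. The shares were 16.9% and 20.5% of all genes, and 22.4% and 24.1% under the stricter filter. The largest positive differences were those of NIP7 (0.80 ± 0.12; 431, 398 and 436 in uninduced dnTcf4 cells, against 229, 299 and 206 in uninduced shRNA cells; adjusted p = 9.2e-05), SDAD1 (0.78 ± 0.14, adjusted p = 0.00028), MRTO4 (0.68 ± 0.14, adjusted p = 0.0013) and UTP4 (0.66 ± 0.09, adjusted p = 2e-05). All 4 had separate values in the 2 groups. RRP12 (-0.92 ± 0.20, adjusted p = 0.0014), NPM3 (-0.85 ± 0.25, adjusted p = 0.015), HEATR1 (-0.63 ± 0.12, adjusted p = 0.00079) and NOP10 (-0.26 ± 0.08, adjusted p = 0.013) were lower in uninduced dnTcf4 cells. The call of NPM3 was lost without shRNA uninduced replicate 2 (-0.78) or dnTcf4 uninduced replicate 1 (-0.65) or 2 (-0.66), and that of NOP10 without shRNA uninduced replicate 2 (-0.24) or dnTcf4 uninduced replicate 3 (-0.23). Without shRNA uninduced replicate 2 the count was 12 of 49 (24.5%), against 30.5% of all genes. Centring each array on its median moved the median difference of all genes to 0.09, against -0.03, and gave 20 members higher and 3 lower. Over all genes it gave 2426 higher and 1668 lower, against 2089 and 2536 without centring. Of the 15 members with a called difference in response, 4 also differed between the uninduced lines and 11 did not pass there.

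Second probe sets gave a further reading of the same arrays. Of 92 probe sets with a member's symbol, 29 besides the chosen ones lay above the filter, for 21 members. With dnTcf4 28 of these 29 changes were below 0 and 16 passed, all lower, and with the shRNA 22 were below 0 and 9 passed, all lower. These were adjusted over all probe sets except controls. Of all 27280 such probe sets above the filter, 53.3% were below 0 and 11.8% were called lower with dnTcf4, and 48.9% and 11.1% with the shRNA.

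Assembly factors outside the 55 genes fell often with dnTcf4, and with the shRNA those of the small subunit did. A list of 32 other small-subunit and 36 other large-subunit factors was written from general knowledge, and 31 and 34 were tested. Earlier results of these data were known when it was written, so its counts are not independent support. With dnTcf4 23 of 31 small-subunit and 21 of 34 large-subunit factors fell, where 20% of all genes did, and 0 and 0 rose. With the shRNA 15 of 31 small-subunit factors fell, where 17.4% of all genes did, but 5 of 34 large-subunit factors is below that share, and 0 and 0 rose, while at an unadjusted p under 0.05 the counts of higher factors were 0 and 1 with the shRNA and 0 and 0 with dnTcf4. The median changes were -0.53 and -0.63 with dnTcf4 and -0.29 and -0.18 with the shRNA. DHX37, a processome helicase, fell by 1.08 with dnTcf4 and was at -0.20 with the shRNA (adjusted p = 0.36), and NLE1, of the large-subunit particle, fell by 1.04 and was at 0.09 (adjusted p = 0.58). UTP25 and NOM1, both of the small-subunit pathway, fell by 1.33 and 1.06 with the shRNA and by 0.46 and 0.97 with dnTcf4.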

How the data were processed

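Per the labels, each sample was 1 array, and per the submitters' processing notes the deposited values came from MAS5 and GCOS, with versions not given in the sources used here. The deposited values are intensities on a linear scale in arbitrary units, without detection calls; the values show a common scale, since the 54675 probe sets of each array average 100.0 once the extreme ranks are dropped (96% kept), and the number of arrays limits the precision. A floor of 1 was applied before the log2 transform. Symbols came from a platform annotation (41097 probe sets with 1 symbol, 1801 with several, 11777 unnamed here) and, outside the members, were updated through gene numbers. The brightest probe set per gene was kept and genes at or above a mean log2 of 3.35 were tested with limma 3.58.1 in R 4.3.3, with 4 group means, a variance trend and 8 residual degrees of freedom. P-values are two-sided and Benjamini-Hochberg adjusted over 12386 genes per contrast. The members and lists were chosen with earlier results of these data known. Genes given by array were the 8 largest separated decreases per induction, the 6 largest differences, up to 4 per direction between uninduced lines, and the snoRNP and PES1 complexes; other members were named after their values were seen. The script was tested on simulated data. Same-numbered arrays did not deviate together (r = -0.08 to 0.04), so the numbers were not used as pairs. Promoters came from RefSeq GRCh38.p14.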

Additional observations from a re-analysis of the deposited data

Results flagged for a closer look

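For 15 factors the change with the β-catenin shRNA differed from that with dnTcf4, tested as a contrast of both changes in limma at an adjusted p under 0.05. Each value is the shRNA change minus the dnTcf4 change on the log2 scale. In the small-subunit pathway it was 0.99 for HEATR1, 0.86 for UTP20, 0.76 for DDX10, 0.71 for BYSL, 0.68 for IMP4, 0.63 for WDR3, 0.60 for UTP14A, 0.59 for WDR75, 0.47 for UTP18 and 0.46 for IMP3. In the large-subunit pathway it was 0.83 for SDAD1, 0.70 for NOC3L, 0.68 for NOP2 and 0.53 for DDX56, and for NHP2 of the H/ACA particle it was 0.39. Leaving out 1 array at a time ended the calls of DDX10 (3 of the 12 arrays), DDX56 (5), IMP3 (6), NHP2 (8), UTP14A (9), WDR75 (9) and NOC3L (10), and kept those of the other 8. Construct, derivative and time differ together between the lines, and their parts cannot be told apart.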

How the results depend on the processing

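The counts of lower members were 23 with the shRNA and 45 with dnTcf4. Leaving out 1 array at a time gave 18 to 26 and 42 to 46, with medians of -0.29 to -0.25 and -0.81 to -0.67, 9 to 17 members with a different change, 12 to 21 differing between uninduced lines, and 0 to 1 higher with the shRNA. That 1 was SDAD1, without shRNA uninduced replicate 3, and it was also higher with array quality weights (1 member). With the mean over all probe sets of a gene 13 were lower with the shRNA (median -0.22), 33 with dnTcf4, and 8 had a different change. Without _x_at and _s_at probe sets 13 of 36 were lower with the shRNA (median -0.21) and 31 of 36 with dnTcf4. TSR1 was at 0.20 with the shRNA under this setting. A minimum change of 1.2-fold left 9 lower with the shRNA, 33 with dnTcf4, 1 with a different change and 8 differing between uninduced lines. With arrays centred on their medians 6 had a different change, and the shRNA median was -0.34. Without a variance trend 9 had a different change, and with array weights the shRNA median was -0.25. SDAD1 with dnTcf4 turned to 0.18 with the mean over probe sets. The cause of these shifts was not tested. Replicate numbers did not pair the arrays, and the fit with the replicate block gave 22 lower with the shRNA, 45 with dnTcf4, 10 with a different change and 19 between uninduced lines. Of 1512 values of single named genes under the alternatives 1396 kept their call and direction, 114 kept the direction only and 2 reversed. A fit of the 2 groups compared alone gives no value for the difference between the lines. Detection calls were not used here, so which dim values exceed background was not tested.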
